A study of Mus musculus with 8 samples.

Results

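The Bcl2 family decides, at the outer mitochondrial membrane, whether a stressed cell goes into apoptosis, and 10 of its genes were followed here in mouse skin after irradiation. They were taken by symbol from a table of 22564 genes: the pore formers Bax and Bak1, the BH3-only genes Bbc3, Pmaip1, Bcl2l11, Bid and Bad, and the pro-survival genes Bcl2, Bcl2l1 and Mcl1. Each symbol had 1 row. The samples were skin of male C57Bl/6 mice, 4 weeks old at irradiation and kept under SPF conditions. The irradiated group (4 libraries) was skin that had received a single dose of 35 Gy, given as 6 MeV electrons at 750 cGy/min, and was taken 24 h later. The nonirradiated group (4 libraries) was skin from an area that had not been irradiated. The labels name no genotype and no other agent, and do not say whether both areas came from the same mouse or whether mice were pooled. They do not state that the libraries of a group came from separate mice, so a p-value here measures only how far the libraries of a group spread, which may be technical.

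Pro-survival members hold Bax and Bak in check, BH3-only members are produced or activated by stress and neutralise the pro-survival members or activate Bax and Bak directly, and active Bax and Bak permeabilise the membrane and release cytochrome c. The transcription factor p53, which DNA damage stabilises, is known to switch on Bax, Bbc3 (Puma) and Pmaip1 (Noxa), so the family is a usual readout of radiation injury. In skin, keratinocytes and hair follicle cells depend on Bcl2, Mcl1 and the Bcl-xL form of Bcl2l1 in different layers, and dividing hair matrix cells are known to die readily after irradiation.

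No member passed the adjusted threshold in the test across all genes, and several members lay near the lower limit of the libraries. Pmaip1 and Mcl1 were higher in all 4 irradiated libraries than in any nonirradiated one, as were 3.99% of all 13324 genes tested. Some of the alternative tests given below called both of these members, and others did not. Pmaip1 averaged 25.0 ± 14.8 against 6.50 ± 1.43 FPKM, and Mcl1 averaged 116 ± 10.9 against 70.4 ± 11.9 FPKM (SD, n = 4 each, FPKM being fragments per kilobase of transcript per 1000000 mapped fragments). Bcl2 was at 5.08 ± 0.764 against 4.73 ± 0.132 FPKM (SD, n = 4 each). The pore formers Bax and Bak1 and the BH3-only genes Bbc3, Bid and Bad were listed at 0 in some libraries.

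The start regions of 2 members are shown because Bax is the textbook p53 target of the family and Mcl1 is its most abundant member here. Both windows come from RefSeq on GRCm38.p6 and run 5′ to 3′ from 250 bases before to 50 bases after the annotated start. Bax lies at chr7:45466849-45467148 on the minus strand, and Mcl1 at chr3:95658471-95658770 on the plus strand. Capitals mark the p53 decamer (the consensus of purines, C, A or T, G and pyrimidines that p53 binds in pairs) in Bax, and in Mcl1 the core of the cAMP response element, TGACG, which there lies on the other strand. Motifs were searched on both strands.
Bax: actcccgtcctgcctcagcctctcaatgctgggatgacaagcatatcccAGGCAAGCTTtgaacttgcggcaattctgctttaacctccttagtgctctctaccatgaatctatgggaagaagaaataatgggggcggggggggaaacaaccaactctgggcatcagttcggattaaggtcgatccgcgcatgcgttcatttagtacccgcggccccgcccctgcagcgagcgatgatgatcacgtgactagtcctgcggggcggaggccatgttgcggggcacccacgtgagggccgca
Mcl1: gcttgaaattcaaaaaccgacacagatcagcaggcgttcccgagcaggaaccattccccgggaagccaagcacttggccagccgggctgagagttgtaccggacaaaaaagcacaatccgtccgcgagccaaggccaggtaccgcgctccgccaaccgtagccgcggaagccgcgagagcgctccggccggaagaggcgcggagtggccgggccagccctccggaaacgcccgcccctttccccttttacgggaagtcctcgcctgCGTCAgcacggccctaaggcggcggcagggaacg
RefSeq start regions were matched for 9 of the 10 members, with 15 windows in all, and for Pmaip1 none was used. The p53 decamer was found in 1 of the 15 windows, that of Bax, 201 to 192 bases before the start, and in 8.36% of all 32851 windows. The TGACG core was found in 3 of the 15, which belong to Mcl1, Bcl2 and Bbc3, and in 20.8% of all windows. The E-box CACGTG, searched in the same way, was found in 2 of the 15, which belong to Bax and Bbc3, and in 7.15% of all windows. A match is a description of letters, not a binding site.

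Depth differed between the groups in a way that touches every low value. The libraries held between 5036276 and 6626648 recovered reads, the deposited estimated counts divided by the library's count step. Genes with few reads piled up at a commonest low read count, which lay between 19.9 and 78.4 reads in irradiated and between 4.16 and 15.6 reads in nonirradiated libraries. Reads divided by that number are called units here, and they stand for distinct fragments only as an assumption. A library then held between 75708 and 332987 units in the irradiated and between 385947 and 1338528 in the nonirradiated group, so the groups did not overlap in this measure. Keratinocyte markers summed to between 2649 and 4530 FPKM in irradiated and between 1855 and 2567 FPKM in nonirradiated libraries, so the markers of the labelled tissue were present. Sebaceous gland marker sums were also higher without overlap. Scd1 was the largest part of them, at 246 to 325 FPKM in irradiated and 109 to 176 FPKM in nonirradiated libraries. Of the 6 sebaceous gland markers tested, 5 had a log2 change above 0 and 1 below. Neutrophil marker sums were higher without overlap too, although Ly6g and Mpo of that list were at 0 in all 8 libraries. The neutrophil sum in irradiated libraries was mostly S100a8 (46.0 to 92.0 against 0 to 3.32 FPKM in nonirradiated ones). Of the 4 neutrophil markers tested, 1 had a log2 change above 0 and 3 below, so the sum does not stand for the cell type. Marker sums of hair follicle (430 to 896 against 1462 to 2082 FPKM), dividing cells (56.3 to 170 against 218 to 322 FPKM) and T cells were lower without overlap. The T cell sums were only 0 to 3.09 against 4.52 to 10.8 FPKM, with Cd3d and Cd8a at 0 in all 8 libraries. At such low values a lower level cannot be told apart from the fewer units of the irradiated libraries. Those of fibroblasts, adipocytes, endothelium, macrophages, melanocytes and skeletal muscle overlapped. The part of these cell types in the values below was not tested, and in bulk RNA fewer cells of a type and less RNA per cell cannot be told apart. For skeletal muscle the mean log2(FPKM + 1) of its markers was used as a covariate. Only nonirradiated replicate 1, at 8.12, lay within the irradiated range of 7.99 to 8.71. A change given with this covariate therefore leans on that library, and muscle content and irradiation cannot be told apart.

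**Figure D1:**
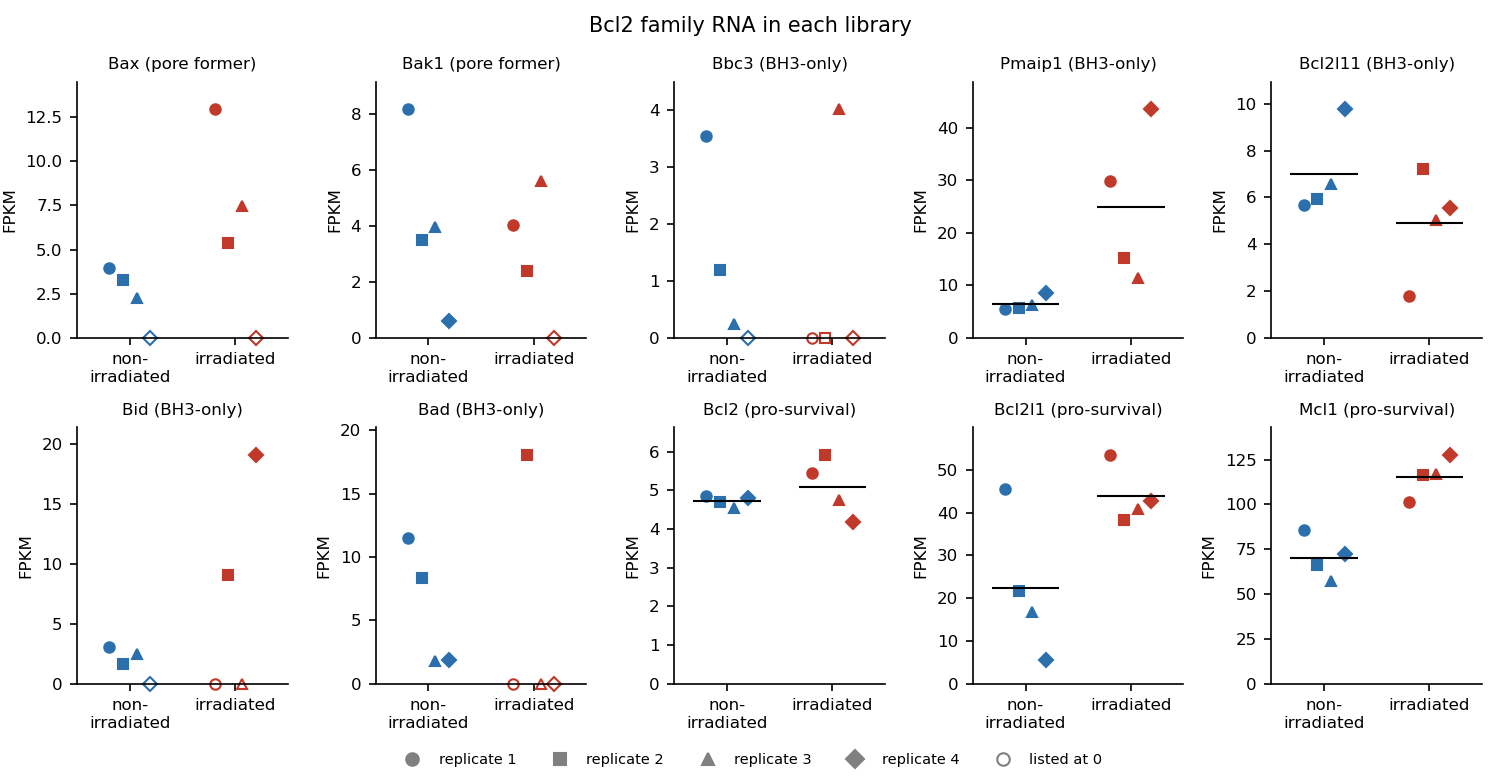
FPKM of the 10 members in each library (vertical axis, linear from 0), nonirradiated in blue and irradiated in red, with marker shapes for replicate numbers, open symbols for values listed at 0 and a line at the group mean where no library is at 0. The 4 irradiated libraries lie above the 4 nonirradiated ones for Pmaip1 and Mcl1, and the groups overlap for the other 8 members.

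The pore formers are the effectors of the pathway. Bax (ENSMUSG00000003873, chromosome 7, 45461697 to 45466898 on GRCm38, as all gene positions here) was at 13.0, 5.36, 7.45 and 0 FPKM in irradiated replicates 1 to 4 and at 3.97, 3.29, 2.26 and 0 FPKM in nonirradiated replicates 1 to 4. The 3 irradiated libraries with a value lay above all nonirradiated ones, and the library listed at 0 made the groups overlap. These values rest on 1, 1, 3 and 0 units in the irradiated and 1, 5, 3 and 0 units in the nonirradiated libraries, so a value of 13.0 FPKM in irradiated replicate 1 stood on 1 unit. In limma the log2 change of Bax, irradiated minus nonirradiated on the log2(FPKM + 1) scale, was 0.86 with an SE of 0.87 and a 95% interval from -1.06 to 2.77 (adjusted p = 0.718). Its value was -0.21 with the skeletal muscle marker level as a covariate. Without irradiated replicate 1 it was 0.39, without nonirradiated replicate 4 0.35 and without irradiated replicate 4 1.65. Bax shares 915 bases with Gm45808 on the same strand, which leaves its reads uncertain.

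Bak1 (chromosome 17, 27019810 to 27029009), which forms pores of the same kind and is held by Mcl1 and Bcl-xL, was at 4.03, 2.39, 5.59 and 0 FPKM in irradiated and at 8.17, 3.502, 3.96 and 0.586 FPKM in nonirradiated replicates 1 to 4. The groups overlapped, with nonirradiated replicate 1 above the irradiated range. Its log2 change was -0.38 with an SE of 0.75 (limma adjusted p = 0.866) was 0.18 without irradiated replicate 4 and was -0.86 without nonirradiated replicate 4. Bak1 lies wholly within Ggnbp1 on the opposite strand, and the use of strand in counting is not given in the sources used here, so their reads cannot be told apart.

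Among the BH3-only genes, Pmaip1 (Noxa; ENSMUSG00000024521, chromosome 18, 66458533 to 66465565), whose protein binds mainly Mcl1, had the smallest p of the 10 members in the limma fit. It was at 29.9, 15.2, 11.3 and 43.6 FPKM in irradiated replicates 1 to 4 and at 5.54, 5.65, 6.22 and 8.60 FPKM in nonirradiated replicates 1 to 4. Every irradiated library was above every nonirradiated one, and irradiated replicates 1 and 4 were far above replicates 2 and 3. On the log2(FPKM + 1) scale the change was 1.63 with an SE of 0.45 and a 95% interval from 0.63 to 2.62 (limma adjusted p = 0.159). The deposited estimated counts were 541 ± 320 against 140 ± 31.2 (SD, n = 4 each). For Pmaip1 they are nearly a fixed multiple of the FPKM values, so they add no separate support. In units Pmaip1 had 9, 9, 14 and 12 in irradiated and 7, 28, 33 and 12 in nonirradiated replicates 1 to 4. Scaled to units per 1000000 units of the library (UPM), its level was between 42.0 and 159 against between 18.1 and 31.1, again without overlap. The exact 95% binomial intervals of irradiated replicate 3 (23.0 to 70.5 UPM) and nonirradiated replicate 4 (16.1 to 54.3 UPM) overlapped, and such intervals cover counting error only. Irradiated replicates 1 and 4 were also the libraries with the fewest units, and without both the log2 change was 0.93 (limma adjusted p = 0.369), a choice made with these values in view. With the skeletal muscle marker level as a covariate it was 1.71 (limma adjusted p = 0.894).

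Bcl2l11 (Bim; chromosome 2, 128126038 to 128162547), an activator that binds all pro-survival members, was at 1.81, 7.23, 5.05 and 5.57 FPKM in irradiated and at 5.68, 5.93, 6.57 and 9.78 FPKM in nonirradiated replicates 1 to 4. Irradiated replicate 2 lay among the nonirradiated values and the other 3 below them. The log2 change was -0.51 with an SE of 0.50 and an interval from -1.61 to 0.58 (limma adjusted p = 0.705). It was -0.19 without irradiated replicate 1 and -0.05 with the skeletal muscle marker level as a covariate. Irradiated replicate 1 had fewer reads of it than the commonest low read count of that library, which rounds to 0 units, and irradiated replicate 4 had 1 unit. Its nonirradiated level of 25.6 to 31.1 UPM lay under the floors of these 2 libraries, 36.6 and 39.6 UPM, a floor being the level of 3 units.

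Bbc3 (Puma; chromosome 7, 16308393 to 16318205), a p53 target that binds all pro-survival members, was listed at 0 in irradiated replicates 1, 2 and 4 and at 4.02 FPKM in replicate 3. In nonirradiated replicates 1 to 4 it was at 3.55, 1.19, 0.243 and 0 FPKM. With 1 unit in the irradiated and 4 in the nonirradiated libraries, its difference was not detectable at this depth (log2 change -0.33, SE 0.68, limma adjusted p = 0.876). Leaving out 1 library moved the change between -0.91 and 0.10. A count of 0 units allows a level of up to 18.4 to 39.6 UPM in the irradiated libraries listed at 0, by the same floor, while Bbc3 reached 2.59 UPM at most in the nonirradiated ones.

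Bid (chromosome 6, 120891930 to 120916853), which caspase-8 cleaves to link death receptors to mitochondria, was listed at 0 in irradiated replicates 1 and 3 and was at 9.12 and 19.1 FPKM in replicates 2 and 4. Its nonirradiated values were 3.07, 1.67, 2.45 and 0 FPKM in replicates 1 to 4. Each of the 2 irradiated values stood on 1 unit, and the other irradiated libraries lay at or below the nonirradiated ones (log2 change 0.61, SE 1.02, limma adjusted p = 0.840). The change was -0.19 without irradiated replicate 4 and 1.25 without irradiated replicate 1 or 3. Bid shares 913 bases with Bcl2l13 on the opposite strand and 2094 bases with Gm44260 on its own strand, which leaves its reads uncertain too.

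Bad (chromosome 19, 6941861 to 6951899), which survival signals keep inactive by phosphorylation, was listed at 0 in irradiated replicates 1, 3 and 4 and was at 18.1 FPKM in replicate 2, from 2 units. In nonirradiated replicates 1 to 4 it was at 11.5, 8.32, 1.81 and 1.84 FPKM. The log2 change was -1.40 with an SE of 1.01 (limma adjusted p = 0.603), and the nonirradiated level of at most 10.4 UPM lay under the floor of irradiated replicates 1 and 4. Without irradiated replicate 2, the only irradiated library with a value, the change was -2.46 (limma adjusted p = 0.160), and without irradiated replicates 1 and 4 it was -0.34. With a pseudocount of 0.1 it was -3.57 (limma adjusted p = 0.429). Bad shares 620 bases with Gpr137 on the opposite strand.

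**Figure D2:**
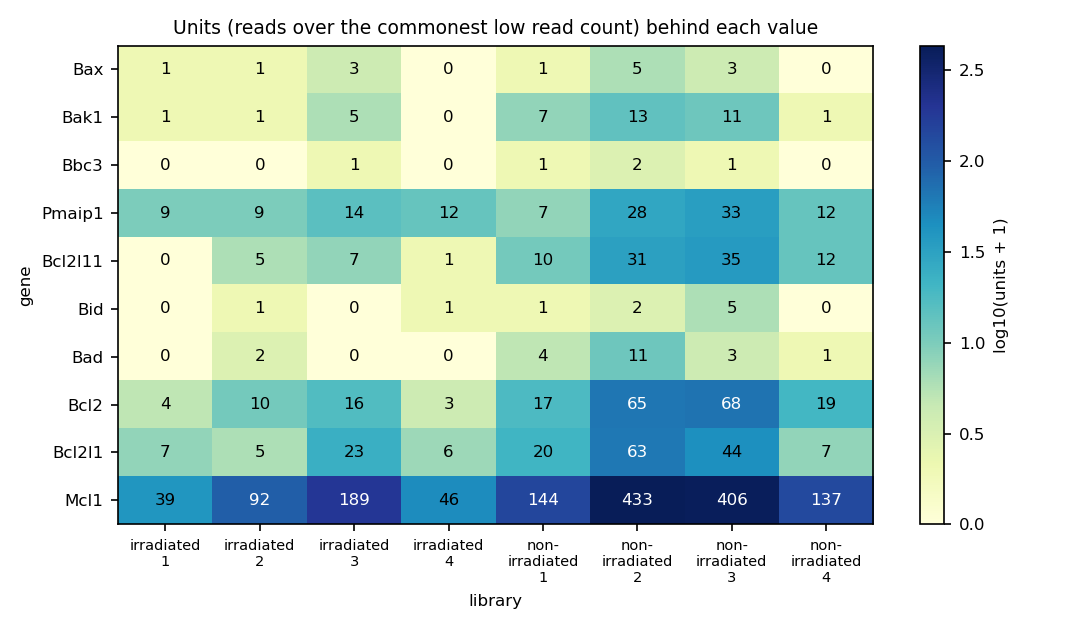
Units behind each value (numbers in the cells, colour on a log10(units + 1) scale) for the 10 members (rows) in the 8 libraries (columns). Bax, Bbc3, Bid and Bad stand on 0 to 5 units in every library apart from 11 for Bad in nonirradiated replicate 2, while Mcl1 stands on 39 to 433.

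Among the pro-survival genes, Mcl1 stood on the most units of all 10 members in every library. Mcl1 (ENSMUSG00000038612, chromosome 3, 95658788 to 95663176), a protein of very short life that binds Noxa, Bim and Bak, was at 101, 117, 117 and 128 FPKM in irradiated replicates 1 to 4. It was at 85.7, 66.1, 57.4 and 72.4 FPKM in nonirradiated replicates 1 to 4. The lowest irradiated library stood above the highest nonirradiated one, and the ratio of the group means was 1.64. The log2 change was 0.72 with an SE of 0.21 and a 95% interval from 0.25 to 1.19 (limma adjusted p = 0.188), and it was 0.41 after quantile normalization. The deposited estimated counts were 3343 ± 316 against 2031 ± 343 (SD, n = 4 each). For Mcl1 too they are nearly a fixed multiple of the FPKM values and add no separate support. On the UPM scale Mcl1 was between 476 and 608 in irradiated and between 303 and 373 in nonirradiated libraries, without overlap. Without irradiated replicates 1 and 4 the change was 0.74 (limma adjusted p = 0.312). Nonirradiated replicate 1 was the highest of its group, and it was also the library of that group with the highest skeletal muscle marker level. With that level as a covariate the change was 0.49 (limma adjusted p = 0.923).

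Bcl2l1 (chromosome 2, 152780668 to 152831728), which encodes the survival protein Bcl-xL and the death-promoting splice form Bcl-xS, was at 53.5, 38.3, 40.9 and 42.6 FPKM in irradiated replicates 1 to 4. It was at 45.5, 21.8, 16.8 and 5.55 FPKM in nonirradiated replicates 1 to 4. In FPKM nonirradiated replicate 1 lay within the irradiated range and the other 3 below it. In UPM irradiated replicate 2, at 30.7 from 5 units, lay below nonirradiated replicates 1 to 3, at 51.8, 52.0 and 32.9. The log2 change was 1.25 with an SE of 0.50 and a 95% interval from 0.14 to 2.36 (limma adjusted p = 0.331), and it was 0.74 without nonirradiated replicate 4 (limma adjusted p = 0.508), no longer under an unadjusted p of 0.05. The unadjusted limma p was also above 0.05 without irradiated replicate 1 (0.068), irradiated replicate 3 (0.054) or nonirradiated replicate 3 (0.060). It stayed under 0.05 when any other single library was left out. The mean log2(FPKM + 1) of the skeletal muscle markers was between 7.99 and 8.71 in irradiated libraries, 8.12 in nonirradiated replicate 1 and between 5.77 and 6.25 in the other nonirradiated libraries. With that level as a covariate the change of Bcl2l1 was 0.08 (limma adjusted p = 0.995), and all 10 muscle markers had a log2 change above 0. The FPKM per estimated count of Bcl2l1 varied 3.67-fold between libraries, against 1.01-fold for Mcl1 and Pmaip1. Among the other members, over the libraries with a value, this was largest for Bbc3 (5.14-fold) and Bid (2.46-fold) and smallest for Bcl2 (1.00-fold). On estimated counts Bcl2l1 was at 391.96 ± 135 against 225 ± 104 (SD, n = 4 each), and with limma on CPM of these counts its change was 0.78 (adjusted p = 0.384). Forms of Bcl2l1 were not separated in the table.

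Bcl2 (chromosome 1, 106538178 to 106714274), the founding member of the family, was at 5.46, 5.92, 4.75 and 4.19 FPKM in irradiated and at 4.86, 4.70, 4.56 and 4.80 FPKM in nonirradiated replicates 1 to 4. The nonirradiated values lay inside the irradiated range. These FPKM values rest on 4, 10, 16 and 3 units in irradiated and 17, 65, 68 and 19 units in nonirradiated replicates 1 to 4. Irradiated replicate 4 lay at its floor of 39.6 UPM. The log2 change was 0.08 with an SE of 0.43 and a 95% interval from -0.87 to 1.03 (limma adjusted p = 0.960), which does not show that the groups were alike. An antisense gene, D630008O14Rik, covers 33103 bases of the Bcl2 locus, and Gm37053 shares 2087 bases with it on the same strand.

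**Figure D3:**
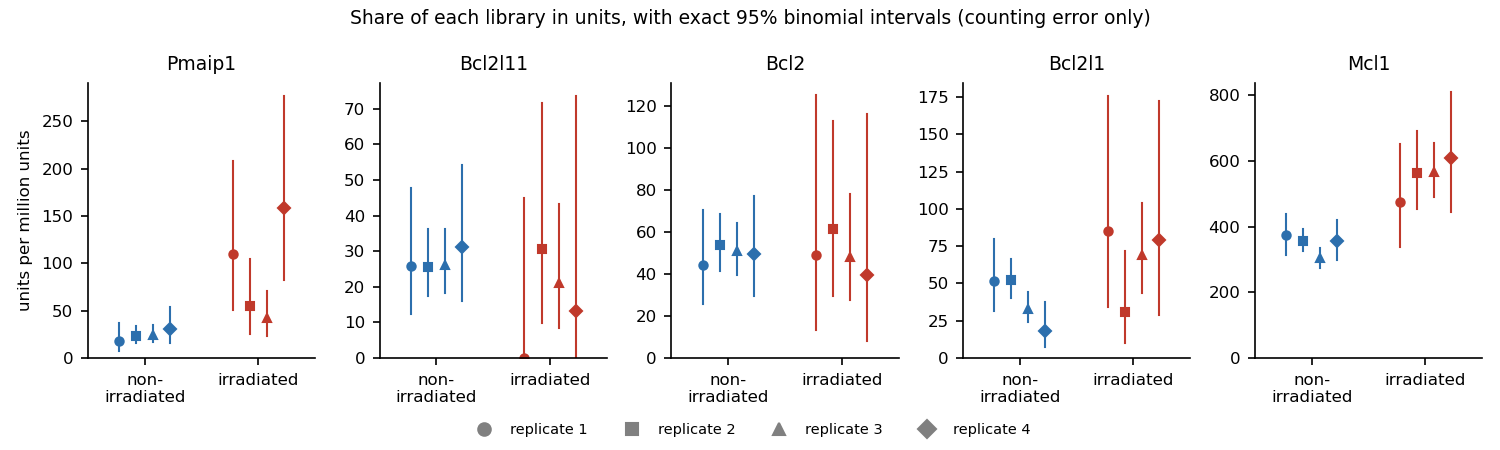
UPM (units per 1000000 units of the library, vertical axis, linear from 0) for the 5 members above 0 FPKM in every library, with exact 95% binomial intervals that cover counting error only, nonirradiated in blue and irradiated in red. Points of Pmaip1 and Mcl1 are higher in all irradiated libraries, and the points of Bcl2, Bcl2l1 and Bcl2l11 overlap between the groups.

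Taking the 10 members together, 6 had a log2 change above 0 and 4 below, with a median of 0.34, while 43.9% of all 13324 genes tested lay above 0 with a median of -0.11. In limma 0 of the 10 passed the adjusted threshold of 0.05, against 0.248% of all genes. At an unadjusted p under 0.05 there were 3 (Pmaip1, Mcl1 and Bcl2l1), all higher, against 12.9% of all genes in either direction and 5.68% higher. Non-overlapping groups were seen for 2 members that were higher, against 3.99% of all genes, and for 0 that were lower, against 4.48%. All 10 passed the filter on low values, a mean of 0.5 FPKM over the 8 libraries, with the lowest mean at 1.13 FPKM for Bbc3. Of the 40 values in each group, 10 were listed at 0 in irradiated and 3 in nonirradiated libraries, in 5 of the members.

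Other tests on the same values placed Pmaip1 and Mcl1 on either side of the threshold. With edgeR on units, where 4 members could be tested, both passed, Pmaip1 at 1.60 (adjusted p = 0.0106) and Mcl1 at 0.66 (adjusted p = 0.00746), against 5.04% of all genes called higher. DESeq2 on reads called the same pair, Pmaip1 at 1.85 (adjusted p = 0.00481) and Mcl1 at 0.65 (adjusted p = 7.31e-05), against 2.18% called higher. limma on CPM of the estimated counts called them as well (adjusted p = 0.0480 and 0.0272), against 1.13%. The edgeR test on reads did not (adjusted p = 0.0727 for Pmaip1 and 0.0674 for Mcl1), against 0.602%. With edgeR on units and without irradiated replicates 1 and 4, Mcl1 passed (0.68, adjusted p = 0.0305) and Pmaip1 did not (0.92, adjusted p = 0.259), against 2.62% called higher.

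**Figure D4:**
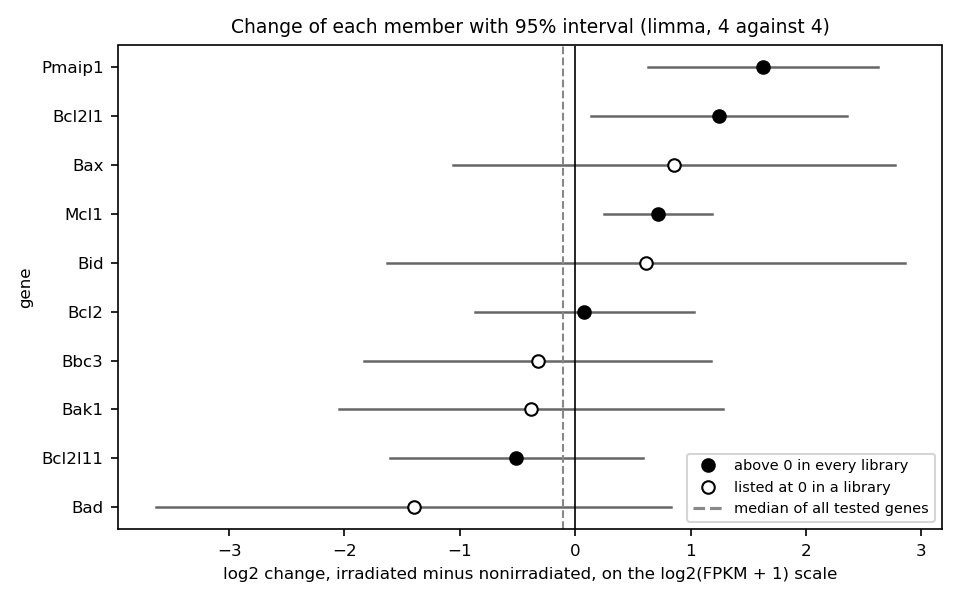
Log2 change of each member, irradiated minus nonirradiated on the log2(FPKM + 1) scale (horizontal axis), with its 95% interval from limma, open circles for members listed at 0 in a library and a dashed line at the median of all tested genes, -0.11. The intervals of Pmaip1, Mcl1 and Bcl2l1 lie above 0 before adjustment, and those of the other 7 cross 0.

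**Figure D5:**
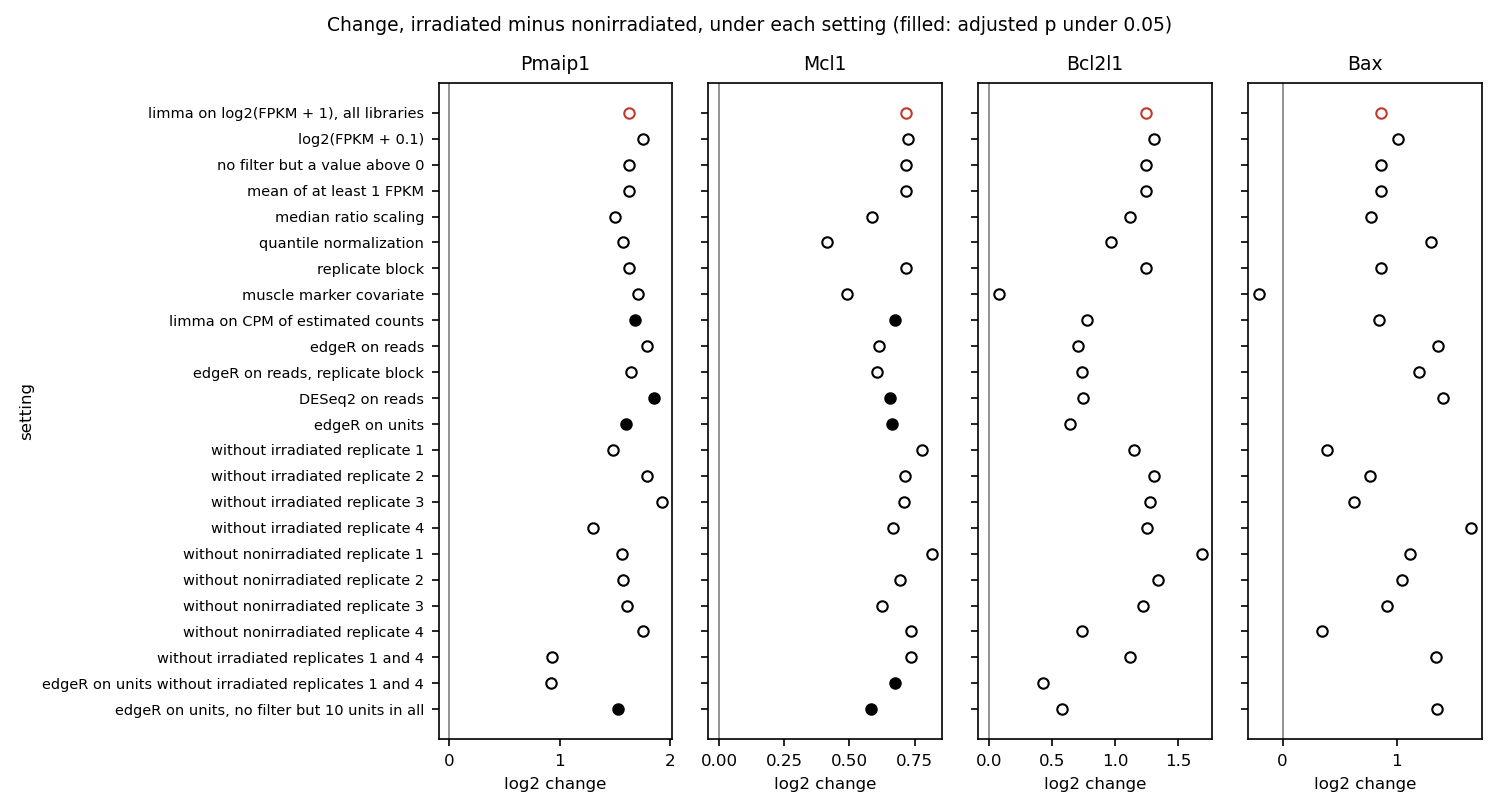
Log2 change of Pmaip1, Mcl1, Bcl2l1 and Bax (horizontal axes, each with its own scale) under each setting (rows), filled where the adjusted p is under 0.05 and red for limma on log2(FPKM + 1) with all libraries. Pmaip1 and Mcl1 stay above 0 in every setting shown and pass in some, Bcl2l1 and Bax pass in none, and Bcl2l1 drops to 0.08 and Bax to -0.21 with the muscle covariate.

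Levels per transcript length put Mcl1 first in all 8 libraries, and its share of the summed FPKM of the 10 genes was between 48.4% and 59.7% in irradiated and between 48.3% and 69.9% in nonirradiated libraries. Bcl2l1 was the next in 6 of 8 libraries. Pmaip1 was next in irradiated replicate 4, ahead of Bcl2l1 by less than the spread between libraries, and Bcl2l11 in nonirradiated replicate 4. The order of the lower members changed from library to library, with Bcl2 between the fifth and the seventh place. Pro-survival genes summed to 160, 161, 163 and 174 FPKM in irradiated and 136, 92.6, 78.7 and 82.8 FPKM in nonirradiated replicates 1 to 4, without overlap and mostly as Mcl1. Pro-death genes summed to 48.7, 57.3, 33.4 and 68.2 FPKM in irradiated and to 41.5, 29.5, 23.5 and 20.8 FPKM in nonirradiated replicates 1 to 4, which overlapped. The pro-survival share of the family was between 71.9% and 83.0% in irradiated and between 75.8% and 79.9% in nonirradiated libraries, and the irradiated range enclosed the other. Mcl1 FPKM per Pmaip1 FPKM was 3.38, 7.68, 10.3 and 2.93 in irradiated and 15.5, 11.7, 9.23 and 8.42 in nonirradiated replicates 1 to 4, so irradiated replicate 3 lay among the nonirradiated values. The ratio of Bax to Bcl2 FPKM was 2.37, 0.905, 1.57 and 0 in irradiated and 0.817, 0.699, 0.496 and 0 in nonirradiated replicates 1 to 4, resting on the few units of Bax. These sums and ratios are descriptions with no test.

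The rest of the family did not pass either. Of 15 further family genes 9 could be tested and 0 passed in limma in either direction, with 0 higher and 1 lower at an unadjusted p under 0.05, a level reached by 12.9% of all genes in either direction and by 5.68% as higher. Their median log2 change was 0.37 against -0.11 over all genes. Bik, Hrk, Bcl2a1d and Bcl2l10 were listed at 0 in all 8 libraries. The smallest p belonged to Bcl2l12, an atypical member of the family, at 0, 3.34, 0 and 0 FPKM in irradiated and 8.07, 2.21, 2.37 and 2.51 FPKM in nonirradiated replicates 1 to 4 (log2 change -1.58, limma adjusted p = 0.333). Bnip3, a mitophagy receptor, averaged 46.9 ± 15.4 FPKM in irradiated and 29.2 ± 9.76 FPKM in nonirradiated libraries (SD, n = 4 each) with a limma adjusted p of 0.448. Bmf, a BH3-only gene linked to loss of anchorage, was listed at 0 in irradiated replicate 4, and its log2 change was -0.74 (limma adjusted p = 0.658). The pathway lists were chosen with earlier results of these data known.

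Downstream of the mitochondria, 19 of 20 genes of the apoptosome, the caspases and their inhibitors could be tested and 0 passed in limma, with 3 higher and 2 lower at an unadjusted p under 0.05, against the same 12.9% and 5.68% of all genes. Their median log2 change was -0.14 against -0.11 over all genes. Xiap, an inhibitor of caspases 3, 7 and 9, was at 92.4, 125, 66.0 and 118 FPKM in irradiated and at 59.8, 35.9, 34.8 and 54.6 FPKM in nonirradiated replicates 1 to 4. The groups did not overlap in FPKM but did in UPM (277 to 390 against 250.3 to 295), and its log2 change was 1.10 with an SE of 0.29 (limma adjusted p = 0.145). Apaf1, the scaffold of the apoptosome and a p53 target, was at 18.6, 16.0, 12.8 and 11.03 FPKM in irradiated and at 10.4, 6.66, 6.00 and 6.43 FPKM in nonirradiated replicates 1 to 4. It did not overlap either, with a log2 change of 0.90 (limma adjusted p = 0.333). Vdac2, the outer membrane channel that Bak and Bax use to reach mitochondria, averaged 157 ± 63.0 FPKM in irradiated and 57.4 ± 47.2 FPKM in nonirradiated libraries (SD, n = 4 each; log2 change 1.66, limma adjusted p = 0.188), and nonirradiated replicate 4 at 126 FPKM lay within the irradiated range. The 2 lower genes, named after their values were seen, were Casp2 and Birc5. Casp2, an initiator caspase, was at 9.20, 18.8, 6.22 and 33.8 FPKM in irradiated and at 37.0, 31.1, 24.9 and 27.2 FPKM in nonirradiated replicates 1 to 4 (log2 change -1.03, limma adjusted p = 0.382). Birc5, the mitotic protein survivin, was at 0, 0, 4.23 and 24.0 FPKM in irradiated and at 18.7, 7.40, 12.9 and 20.3 FPKM in nonirradiated replicates 1 to 4 (log2 change -2.14, limma adjusted p = 0.382). In FPKM irradiated replicate 4 made the groups overlap for both, each time from 2 units. In UPM the groups of Casp2 did not overlap, at 26.4 to 48.8 in irradiated and at least 57.0 in nonirradiated libraries. These irradiated values of Casp2 rest on 4, 5, 9 and 2 units in replicates 1 to 4. For Birc5 irradiated replicate 4, at 26.4 UPM, made the groups overlap in UPM too. The marker sum of dividing cells given above was also lower in irradiated libraries, and its part in these values was not tested.

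Of 16 direct regulators of the family 15 could be tested and 0 passed in limma, with 3 higher and 0 lower at an unadjusted p under 0.05, against 12.9% of all genes in either direction and 5.68% higher. Their median log2 change was 0.22 against -0.11 over all genes. The 3 were Mdm2, the ligase that degrades p53, Bag3, a co-chaperone that protects pro-survival members from degradation, and Trp73, a relative of p53. Mdm2 averaged 108 ± 18.8 FPKM in irradiated and 52.7 ± 9.81 FPKM in nonirradiated libraries (SD, n = 4 each; log2 change 1.03, limma adjusted p = 0.0978). Bag3 was at 52.6, 16.8, 23.4 and 41.1 FPKM in irradiated and at 15.4, 8.34, 11.8 and 8.55 FPKM in nonirradiated replicates 1 to 4 (log2 change 1.43, limma adjusted p = 0.162). Like Pmaip1, it was highest in irradiated replicates 1 and 4. Trp73 was at 14.0, 1.24, 4.67 and 4.10 FPKM in irradiated replicates 1 to 4, from 1, 1, 1 and 2 units, against at most 1.02 FPKM in nonirradiated libraries, from 0, 6, 7 and 0 units (limma adjusted p = 0.210). In UPM its groups overlapped, irradiated replicate 3 at 3.003 lying below nonirradiated replicates 2 and 3 at 4.96 and 5.23. Trp53 itself was at 17.6, 0.775, 15.1 and 0 FPKM in irradiated and at 18.6, 18.6, 17.5 and 11.3 FPKM in nonirradiated replicates 1 to 4 (limma adjusted p = 0.425). It stood on 4, 1, 7 and 0 units in irradiated and 6, 61, 33 and 2 units in nonirradiated replicates 1 to 4. Beside these genes, the p53 target Ccng1 passed in the same fit (log2 change 1.75, limma adjusted p = 0.00870), and Cdkn1a did not (1.14, limma adjusted p = 0.157).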

How the data were processed

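Per the labels' protocols, stranded libraries were prepared from total skin RNA after removal of ribosomal RNA. The authors deposited FPKM values and estimated counts, 1 of each per gene and library. The submitters' processing notes list Cuffdiff, Cufflinks, HISAT2 2.0.4, cutadapt 1.9.3 and the build mm10, without saying what each did. Which annotation was used, and whether counting used strand, is not given in the sources used here. The table had 22565 lines, with 1 empty. Gene positions were looked up by identifier in GENCODE M21 (GRCm38, the same assembly).

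Deposited counts are mostly whole multiples of 1 step per library (0.871 to 1.10). After division by it, 92.6% to 96.3% of genes under 2000 steps lay within 0.02 of whole. The commonest low read count was sought between 3.5 and 300 reads with a kernel width of 0.15 (natural log of reads), and 2 nonirradiated libraries lay near its lower edge. Recovered reads were rounded.

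The test was limma 3.58.1 (R 4.3.3) on log2(FPKM + 1) with a trend and robust moderation, over the 13324 genes whose mean reached 0.5 FPKM. Benjamini-Hochberg adjustment ran over these genes, with a threshold of 0.05. A change on this scale understates low genes. edgeR 4.0.16 and DESeq2 1.42.0 on reads or units, and other settings, were alternatives. Scripts were tested on simulated data. The members, lists and tests were chosen with earlier results of these data known. All members are named, and of each pathway list those that passed or else the 3 with the smallest p, with Trp53, Mdm2, Ccng1 and Cdkn1a. Intervals and floors cover counting error only.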

Additional observations from a re-analysis of the deposited data

Results flagged for a closer look

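Among 44 groups of 4 libraries, those of the 10 members and 12 other named genes, 6 held a library that stood far from the other 3 by Dixon's gap test at the 95% level, which chance alone would flag in about 1 in 20 groups of ordinary values. That rate does not hold for 3 of the 6, where the other libraries are all listed at 0 and any single value is picked out, here from 1 or 2 units. Bbc3 was at 4.02 FPKM in irradiated replicate 3 and listed at 0 in the other 3. Bad was at 18.1 FPKM in irradiated replicate 2, where the other 3 were also listed at 0, and Bcl2l12 was at 3.34 FPKM in that same library with the others at 0. Nonirradiated replicate 1 stood above its group for Apaf1, at 10.4 FPKM against 6.00 to 6.66, and for Bcl2l12, at 8.07 FPKM against 2.21 to 2.51. Trp53 was at 11.3 FPKM in nonirradiated replicate 4, below the 17.5 to 18.6 FPKM of the other 3. That value rests on 2 units, and those of nonirradiated replicates 1 to 3 rest on 6, 61 and 33 units.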

How the results depend on the processing

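Over all genes limma called 33, and other settings gave 254 (limma on CPM of estimated counts, 151 higher and 103 lower against 16 and 17), 133 (edgeR on reads), 707 (DESeq2 on reads), 530 (edgeR on units) and 0 (muscle covariate, 743 at an unadjusted p under 0.05). Settings chosen after seeing the data gave 606 (edgeR on units with at least 10 units in all), 9 (limma without irradiated replicates 1 and 4) and 318 (edgeR on units without them). Leaving out 1 library gave between 4 and 76 genes, the lowest when nonirradiated replicate 2 or 3 was dropped. Dropping nonirradiated replicate 4 gave 11, irradiated replicate 1 gave 20, irradiated replicate 3 gave 51 and nonirradiated replicate 1 gave 76. The replicate block gave 16 genes with limma and 134 with edgeR on reads and called 0 members. Same-numbered libraries correlated in their deviations at -0.013 to 0.090, so the numbers were not taken to pair the samples.

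Members called went from 0 to 2 (limma on CPM, DESeq2 on reads, edgeR on units, and edgeR on units with at least 10 in all) and to 1 (edgeR on units without irradiated replicates 1 and 4), and stayed at 0 in all 8 limma fits that left out 1 library. Of all genes, 1.13% were called higher with limma on CPM, 2.18% with DESeq2 on reads and 5.04% with edgeR on units. With at least 10 units in all it was 285 of 12406 genes, and 9 members were tested. Without irradiated replicates 1 and 4 it was 2.62%. Pmaip1 kept its direction in 23 of 23 alternatives (0.92 to 1.93), Mcl1 in 23 of 23 (0.41 to 0.82) and Bcl2l1 in 23 of 23 (0.08 to 1.68). The median of all genes shifted from -0.11 to -0.28 with CPM, against which Pmaip1 was 1.96 higher and Mcl1 0.95 higher. The sign of uncalled members turned as follows, and the cause was not tested. Bcl2 was -0.032 with median ratio scaling, -0.023 with edgeR on reads, -0.029 with its block, -0.014 on units and -0.080 with at least 10 units. Bbc3 was 0.31 after quantile normalization, 0.28 with DESeq2, 0.10 without nonirradiated replicate 1 (-0.91 to 0.10 over the fits without 1 library) and 0.26 without irradiated replicates 1 and 4. Bax was -0.21 with the muscle covariate. Bid was -1.51 with edgeR on reads and the block and -0.19 without irradiated replicate 4 (-0.19 to 1.25). Bak1 was 0.18 without irradiated replicate 4 (-0.86 to 0.18) and 0.15 without irradiated replicates 1 and 4. Few units in the irradiated libraries limit Bax, Bak1, Bbc3, Bid, Bad and Bcl2l11, and also Bcl2 (3 to 16 units) and Bcl2l1 (5 to 23 units). For Bax, Bbc3 and Bid the nonirradiated libraries held few units as well, at most 5.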
